A study of Mus musculus with 4 samples.

Results

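The genes described here are 10 genes of the contractile apparatus that mark smooth muscle cells and myofibroblasts, namely Acta2, Actg2, Myh11, Myl9, Cnn1, Tagln, Tpm1, Tpm2, Lmod1 and Des. They were found by their gene name among the gene probes of a mouse whole-genome array, which gave 10 of the 27745 gene names and 18 of the 41174 gene probes. The RNA came from mouse embryonic fibroblasts (MEFs), connective-tissue cells grown from embryos and taken in logarithmic growth. MEFs without cyclin G1 (CycG1-/-, G1KO) were hybridised together with CycG1+/+ (WT) MEFs. MEFs labelled as lacking cyclin G2 (CycG2-/-, G2KO) were hybridised together with CycG2+/+ (WT) MEFs. All MEFs were C57BL/6J by their strain label, although the source names of the G2KO samples write the strain differently. Per the study's methods MEFs were prepared from embryos at mid-gestation. Each comparison had 2 arrays that held the same 2 RNAs with the dyes exchanged. There was thus 1 culture per genotype in each comparison, no difference below has a replicate check, no p-value is given, and the SD between both arrays of a pair is technical.

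Smooth muscle contracts when phosphorylated myosin, built from Myh11 heavy chains and Myl9 regulatory light chains, pulls on filaments of Acta2 and Actg2 actin. Calponin (Cnn1), transgelin (Tagln) and the tropomyosins bind along those filaments, Lmod1 nucleates them, and desmin (Des) links the apparatus into an intermediate filament network. Most of these genes are driven by serum response factor (SRF) with its myocardin-family partners at DNA elements called CArG boxes, and TEAD factors act at MCAT elements. Fibroblasts that take on part of this programme, Acta2 stress fibres above all, are called myofibroblasts, and cultured MEFs commonly hold such cells.

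Promoters are shown first, for a gene near equal in all cultures at its brightest probe (Acta2), one with ratios of opposite sign in the comparisons (Myl9) and the one with the largest ratio (Cnn1). Each line gives the 250 bases before the RefSeq transcription start, 5′ to 3′ on the strand of the gene, on build GRCm38.p6. Capitals mark matches to the CArG box with at most 1 substitution among its middle bases, or to the MCAT letters CATTCC on either strand, which read GGAATG on the other strand.
Acta2, chr19:34255374-34255623, minus strand: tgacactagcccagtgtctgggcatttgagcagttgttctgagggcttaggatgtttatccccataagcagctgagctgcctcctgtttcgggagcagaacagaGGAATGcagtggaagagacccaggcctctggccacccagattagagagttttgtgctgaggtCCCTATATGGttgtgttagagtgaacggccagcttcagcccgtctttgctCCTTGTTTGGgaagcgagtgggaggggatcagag
Myl9, chr2:156775214-156775463, plus strand: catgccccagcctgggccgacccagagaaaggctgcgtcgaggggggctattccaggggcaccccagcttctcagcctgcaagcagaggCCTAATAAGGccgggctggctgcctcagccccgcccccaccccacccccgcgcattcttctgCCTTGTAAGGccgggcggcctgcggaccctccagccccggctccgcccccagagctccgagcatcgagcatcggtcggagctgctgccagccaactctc
Cnn1, chr9:22099003-22099252, plus strand: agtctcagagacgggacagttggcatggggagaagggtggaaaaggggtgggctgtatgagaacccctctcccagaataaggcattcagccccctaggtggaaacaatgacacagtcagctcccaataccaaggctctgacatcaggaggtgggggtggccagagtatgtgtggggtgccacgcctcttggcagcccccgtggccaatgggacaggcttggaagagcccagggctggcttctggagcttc

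A promoter window of 300 bases, which adds those just after the start, was at hand for 7 of the 10 genes. Tagln, Actg2 and Myh11 had no window, and bases outside the windows were not searched. The consensus CArG box was found in 1 of the 7, Myl9, as CCTAATAAGG at position -161. Among all 32851 windows, 1.63% held it. With 1 substitution allowed in the middle bases, 2 of the 7 genes had a match, against 9.98% of all windows. In Acta2 these were CCCTATATGG at -84 and CCTTGTTTGG at -34, and Myl9 gained CCTTGTAAGG at -99. The MCAT letters were in 3 of the 7 windows, at -146 in Acta2, -56 in Tpm1 and -130 in Lmod1, and in 14.7% of all windows. The CArG box reads the same way on both strands, and no CArG match overlapped an MCAT match. Cnn1 held neither element in this window. Acta2 carried both elements and Myl9 the consensus CArG box, and the ratios below set these promoters beside the RNA levels.

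Facts of the whole series come before the values. Between 25366 and 27757 gene spots were well above background per channel, and no gene spot was saturated. The targeted gene Ccng1 was lower in G1KO at both of its probes, with mean log2 ratios of -6.67 and -4.96. Ccng2 was not lower in the RNA labelled G2KO, where its 1 probe gave log2 ratios of 0.28 and -0.10 on the arrays, so every direction drawn from that comparison rests on the label. Ccng1 was higher in that RNA than in its WT, at 2.67 and 2.49. As mean normalised log2 intensity at the same probes, Ccng1 measured 13.81 and 13.22 in G2KO and 11.14 and 10.73 in its WT. The WT of the G1KO pair stood at 13.67 and 12.96, so the WT of the G2KO pair was the lower of the 2 WT cultures. Whether the Ccng2 probe lies in the deleted part of Ccng2 was not analysed here, and a probe outside it would check nothing. In both comparisons the knockout RNA held far more Xist (log2 ratios of 7.54 and 7.24 at the probe with the largest difference) and was not well above background for the Y-linked Eif2s3y, which WT was. Knockout genotype and the sex of the embryos can therefore not be told apart. On each array 1 spot of a probe printed 10 times (the brightest of Acta2, or Des) was marked as an outlier and left out, and the other spots of that probe gave its value.

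In G1KO MEFs, calponin (Cnn1) and smooth muscle myosin heavy chain (Myh11) were higher than in WT, with mean log2 ratios of 1.57 and 1.03. The regulatory light chain Myl9 had a mean of 1.04 and missed the call on 1 array, and the other genes were not called. In MEFs labelled G2KO, Myl9 was lower, with a mean of -1.19. Cnn1, Myh11, Tagln and Tpm2 were below WT on both arrays without a call, at -0.50, -0.56, -0.55 and -0.66, and the Myh11 value is only a bound. The ratios are knockout over WT on the log2 scale. A gene was tested where its probe was well above background on both arrays in at least 1 genotype, and it was called where it differed at least 2-fold in the same direction on each array. A gene was read by its brightest probe. In the G1KO comparison 9 of the 10 genes were tested and 2 were called, Cnn1 and Myh11, both higher, against 5.79% of all 25541 probes tested called either way, 1.99% called higher and 3.80% called lower. In the G2KO comparison 9 were tested and 1 was called, Myl9, lower, against 6.37% of 25431 called either way, 2.31% called higher and 4.06% called lower. The median log2 ratio over the genes tested was 0.10 in G1KO and -0.50 in G2KO, beside -0.00 and -0.01 over all probes. Myh11 entered the G2KO median through WT alone, and with both genotypes required above background the median was -0.38 over 8 genes.

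**Figure D1:**
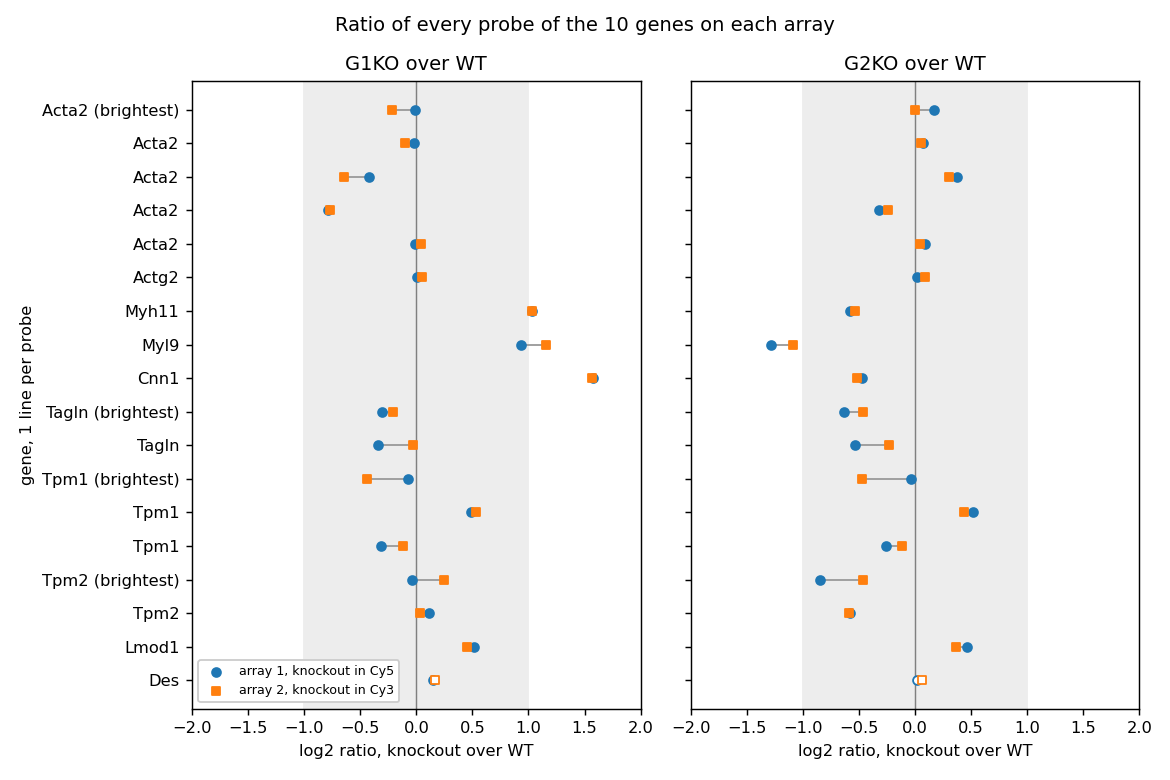
Log2 ratio of knockout over WT (horizontal axis) for each of the 18 probes (1 line each), with G1KO on the left and G2KO on the right. Circles are the array with knockout RNA in Cy5, squares the array with it in Cy3, open symbols (Des) probes not above background, and the grey band differences under 2-fold. Cnn1 and Myh11 lie beyond the band in G1KO on both arrays, Myl9 does so in G2KO, and the 5 Acta2 probes stay inside it.

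The myosin subunits came first in size with calponin. Myh11, the heavy chain that is the most specific marker of differentiated smooth muscle, was read by 1 probe (chromosome 16, 14108708 to 14111632, minus strand, mm8). Its log2 ratio in G1KO was 1.03 and 1.04 on the arrays, a mean fold of 2.05, and 2.10% of all probes tested were as high or higher. In G2KO its ratios were -0.58 and -0.53, and it was not well above background there on either array while WT was on both, so that it was at least 1.47-fold lower. It lay close to background, and its ratio moved with the background correction. It was 1.57 in G1KO and -1.37 in G2KO with normexp offset 0, and 1.23 and -0.73 with no correction. The scanner's own log ratio, which differs in normalisation as well, gave 1.88 and -2.19. Both directions held under each of the alternatives tried.

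Myl9, the regulatory light chain whose phosphorylation starts contraction, had 1 probe as well (chromosome 2, 156473006 to 156473065, plus strand, mm8). In G1KO its log2 ratios were 0.93 and 1.15, so that the first array kept it just short of the call. In G2KO they were -1.29 and -1.09, a mean of -1.19 ± 0.14 (SD, 2 arrays), and 3.45% of all probes tested were as low or lower. The ratio was above 0 on both G1KO arrays and below 0 on both G2KO arrays. Such opposite signs on all 4 arrays were seen at 7 of the 17 member probes tested in both comparisons, against 35.8% of all 24150 such probes.

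Calponin, Cnn1, binds actin and restrains the myosin motor. Its probe (chromosome 9, 21859016 to 21859075, plus strand, mm8) gave log2 ratios of 1.58 and 1.56 in G1KO, a mean of 1.57 ± 0.01 (SD, 2 arrays) or 2.97-fold. Of all probes tested in that comparison 0.822% were as high or higher. In G2KO the ratios were -0.47 and -0.52, below WT on both arrays by less than the 2-fold needed for a call.

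Both smooth muscle actins were near 0 at their brightest probes. Acta2, the actin of myofibroblast stress fibres, gave -0.02 and -0.22 in G1KO and 0.17 and 0.00 in G2KO at its brightest probe (chromosome 19, 34307567 to 34307626, minus strand, mm8). Actg2, the actin of visceral smooth muscle, gave 0.00 and 0.05 in G1KO and 0.02 and 0.09 in G2KO. The most similar genes to Acta2 over the 4 arrays, by Euclidean distance of the ratios, were Asf1a, Dnaja3, 4833422F24Rik, Slc7a11 and Rpe, at 0.04 to 0.06, and 33.2% of 21771 probes lay within 0.5 of it.

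The 5 Acta2 probes did not give 1 answer. In G1KO, of the 2 probes that lie downstream of the brightest on the minus strand, the probe at 34307204 to 34307263 gave -0.42 and -0.65, and the probe at 34306703 to 34306761, from the clone AK077294, gave -0.79 and -0.77. The probe spanning 34314502 to 34317756 gave -0.02 and -0.11, and the one at 34319453 to 34319512 gave -0.01 and 0.05. Lower ratios in G1KO were thus at the 2 probes placed furthest downstream, none of them past 2-fold. In G2KO the same downstream probes went apart from each other, with 0.38 and 0.30 at the first and -0.33 and -0.24 at the second. Which transcript ends these probes read was not analysed here.

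Among the proteins that bind actin filaments, Tagln, which bundles them, was lower on every array at both probes. Its brightest probe (chromosome 9, 45681009 to 45681068, minus strand, mm8) gave -0.31 and -0.21 in G1KO and -0.63 and -0.46 in G2KO. The other probe gave -0.35 and -0.03 in G1KO and -0.54 and -0.23 in G2KO. None of these reached 2-fold.

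The tropomyosins stabilise the filaments and set where myosin can bind. At its brightest probe Tpm2 gave -0.04 and 0.24 in G1KO, on both sides of 0, and -0.85 and -0.47 in G2KO. The second Tpm2 probe gave 0.11 and 0.04 in G1KO and -0.58 and -0.59 in G2KO, so that both probes were lower in G2KO on each array. Tpm1 is spliced into many isoforms and its 3 probes disagreed. The brightest gave -0.08 and -0.44 in G1KO and -0.03 and -0.47 in G2KO. A probe from the clone AK077713 (chromosome 9, 66827296 to 66828851, minus strand, mm8) gave 0.49 and 0.53 in G1KO and 0.52 and 0.44 in G2KO, above 0 on all 4 arrays. The third gave -0.31 and -0.12 in G1KO and -0.26 and -0.12 in G2KO. The pattern of Tpm1 was therefore a split by probe rather than by comparison, and no probe passed 2-fold.

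Lmod1, which starts new actin filaments in smooth muscle, was above WT in both comparisons, with 0.51 and 0.45 in G1KO and 0.46 and 0.37 in G2KO. It stayed under 2-fold in each. Des, the intermediate filament protein of muscle, was not well above background on any array or in any culture, so only its dimness can be reported. Of the defining markers in the list, desmin was the one without a measurable level.

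The level of each gene in the 4 cultures was then set out, as normalised log2 intensity on a scale aligned across the arrays. At the brightest probes Acta2 was the most even of the 9 genes above background, with a range of culture means of 0.30, from 17.17 in the WT of the G1KO pair to 16.87 in the WT of the G2KO pair. At its other 4 probes the range was 0.40 to 1.29. Cnn1 was the most uneven, with a range of 3.03. It measured 15.14 and 15.30 in G1KO, 13.57 and 13.74 in the WT of that pair, 12.68 and 12.69 in the WT of the G2KO pair and 12.21 and 12.17 in G2KO. Neighbouring cultures in this order did not overlap between arrays.

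Myl9 fell into 2 levels. It measured 16.39 and 16.13 in the WT of the G2KO pair and 15.94 and 16.26 in G1KO, and these overlapped. In G2KO it measured 15.10 and 15.04 and in the WT of the G1KO pair 15.01 and 15.11, and these overlapped too. The high level was thus that of a WT culture and of a knockout culture, and so was the low one.

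Myh11 was highest in G1KO, with 7.92 and 7.76. The WT of the G2KO pair (6.81 and 6.86) and that of the G1KO pair (6.88 and 6.73) overlapped, and G2KO lay below both at 6.23 and 6.33, under the detection flag. For Tagln the order was the WT of the G1KO pair (mean 16.94), the WT of the G2KO pair (16.72), G1KO (16.69) and G2KO (16.17), with overlap between the middle cultures. Tpm2 stood at 15.39 in G1KO, 15.29 and 15.18 in the WT cultures, each overlapping the next, and 14.52 in G2KO, which did not overlap them. Lmod1 was lowest in the WT of the G1KO pair (10.85), followed by the WT of the G2KO pair (11.23), G1KO (11.33) and G2KO (11.65), with no overlap. Actg2 split by pair and not by genotype, at 14.17 and 14.19 in the G1KO pair and 13.63 and 13.68 in the G2KO pair. Tpm1 was 16.51 in the WT of the G2KO pair, 16.26 in G2KO, 16.20 in the WT of the G1KO pair and 15.94 in G1KO, and the middle values overlapped.

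**Figure D2:**
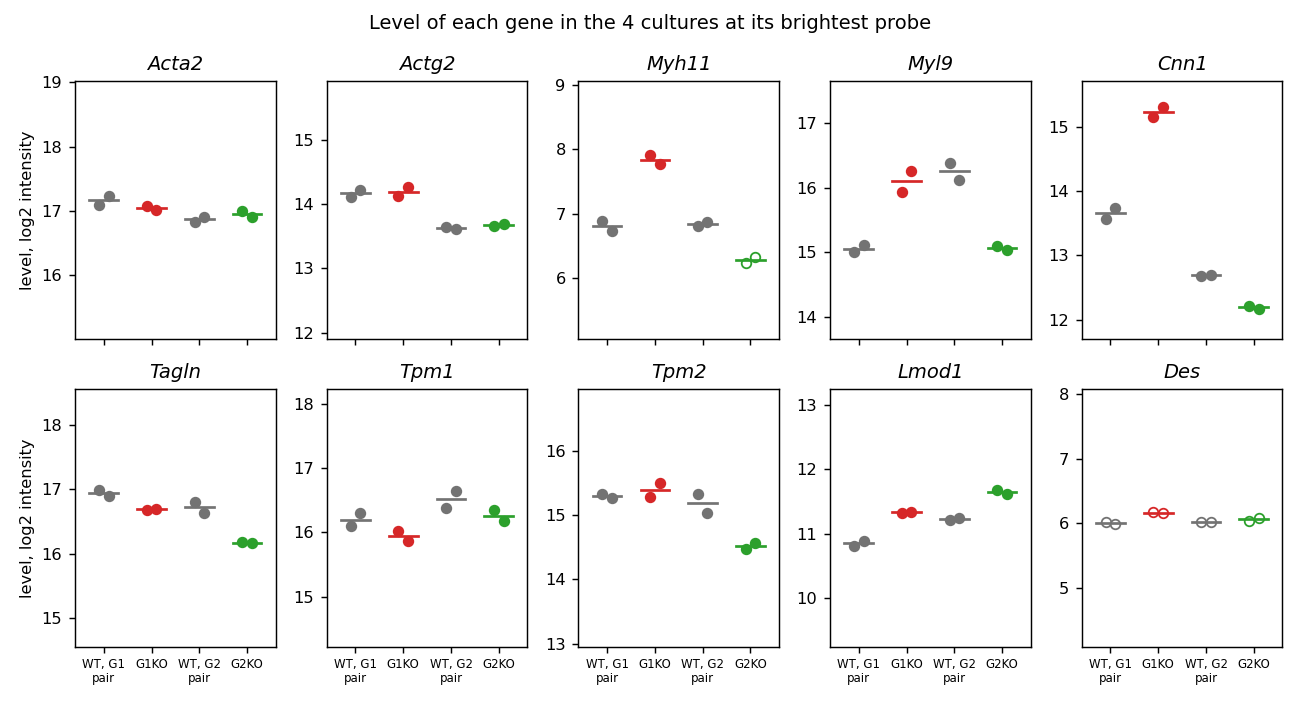
Normalised log2 intensity (vertical axis, the same span of units in each panel) of the brightest probe of each gene in the WT of the G1KO pair, G1KO, the WT of the G2KO pair and G2KO. Points are the 2 arrays, bars their mean, and open points are not well above background on both arrays. Cnn1 spans 3.03 units and Acta2 0.30, and Myl9 shows the high level in G1KO and the WT of the G2KO pair.

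The WT cultures of both pairs were compared as well. Since WT RNA carried the same dye on the matching array of each pair, the difference between both WT cultures could be taken within a dye. Of the 9 genes tested 1 lay at least 2-fold apart in each dye, Myl9, beside 11.0% of all 26127 probes tested, 5.52% higher and 5.51% lower in the WT of the G2KO pair. Its difference, the WT of the G2KO pair over that of the G1KO pair, was 1.38 in Cy3 and 1.02 in Cy5. The mean of 1.20 was as large as the Myl9 difference of either knockout from its own WT. Cnn1 differed by -0.88 and -1.05, with a mean of -0.96, less than its G1KO ratio and more than its G2KO ratio in size. Myh11 differed by -0.08 and 0.14 and was the gene with a call that the WT cultures shared most closely. Its WT levels lay close to background, with means of 6.81 and 6.84, so that this closeness carries limited weight.

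Across the 9 genes, the difference between the WT cultures was at least as large as the G1KO ratio for 5 and at least as large as the G2KO ratio for 5. The remaining WT differences at the brightest probes were -0.54 for Actg2, 0.38 for Lmod1, 0.32 for Tpm1, -0.30 for Acta2, -0.23 for Tagln and -0.11 for Tpm2. Other probes gave -0.40 to -1.01 for Acta2, -0.56 for Tagln, -0.27 for Tpm2, and 0.10 and 0.45 for Tpm1. In both dyes 5 genes were lower in the WT of the G2KO pair and 3 were higher. The matching shares over all probes were not computed, so these counts do not set the 9 genes apart from other genes.

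**Figure D3:**
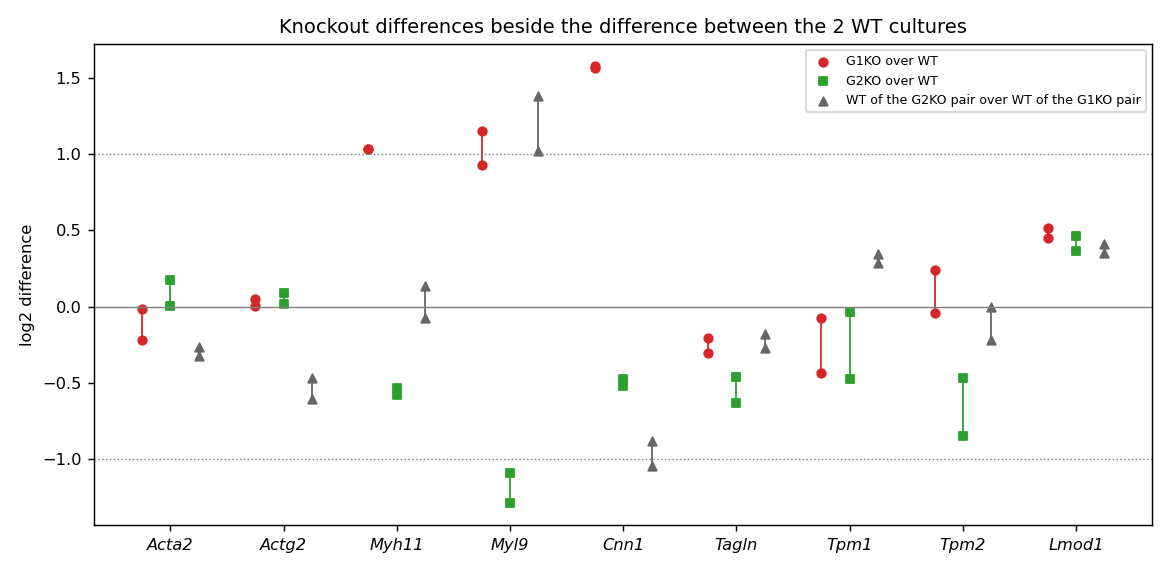
Log2 difference (vertical axis) of each gene above background for G1KO over WT (circles), G2KO over WT (squares) and the WT of the G2KO pair over the WT of the G1KO pair (triangles). The 2 points of a kind are the 2 arrays or dyes, and dotted lines mark 2-fold. For Myl9 the WT difference of 1.20 is as large as either knockout difference. For Myh11 it is 0.03, at levels close to background.

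The neighbouring genes of the contractile programme were described as lists, by counts and medians. Of 20 partners of the contractile apparatus tested in G1KO, 1 was higher and 1 lower, with a median of -0.34. Itga8, the integrin chain of contractile mesenchyme, was higher at 1.38, and Mylk, the kinase that phosphorylates Myl9, was lower at -1.10 while Myl9 itself stood at 1.04. In G2KO 19 were tested, 1 was higher and 3 were lower, with a median of 0.09. There Itga8 was lower at -2.50, Tns1, a linker of actin to integrins, at -2.27, and Ppp1r12b, a subunit of myosin phosphatase, at -1.17. The Ppp1r12b call rested on its brightest probe, and its other tested probes gave -0.14 and -0.06. Other tested probes gave -2.26 and -0.25 for Itga8 and -1.73 to -1.19 for Tns1. Pgm5, a protein of adherens junctions in muscle, was higher at 3.18, with WT above background on 1 of the 2 arrays.

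Paralogues of the members that are expressed outside smooth muscle, such as the cytoplasmic actins Actb and Actg1, gave no call in either comparison among 16 tested in each, with medians of -0.10 and 0.08. Regulators of the programme, SRF, the myocardin family, the TEAD factors and the TGF-beta ligands among them, were called in 1 of 17 cases in G1KO and 2 of 18 in G2KO. Klf4, a repressor of smooth muscle genes, was lower in both, at -1.09 and -1.25, and Tgfb3 was lower in G2KO at -3.21. The medians of these regulators were -0.09 and 0.02.

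SRF targets outside muscle went both ways. In G1KO 2 of 10 were higher, the immediate-early genes Egr1 at 1.41 and Egr2 at 1.65, and 1 was lower, the matricellular gene Ccn2 at -1.89. In G2KO Ccn2 was higher at 1.90 and the LIM protein gene Fhl2 lower at -1.73. The medians were 0.00 and 0.03.

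Matrix genes of the myofibroblast state were mostly below WT in G2KO. There 5 of 13 were lower and 0 were higher, beside 4.06% of all probes tested called lower, with a median of -0.73. Of the 13 genes 12 were below 0 on both arrays, and the share of all probes that were so was not computed. The collagen crosslinker Lox stood at -5.05, periostin (Postn) at -4.19, Col3a1 at -2.90 and cadherin 11 (Cdh11) at -2.24. Other tested probes gave -1.25 and -0.27 for Col3a1 and -2.3 and -0.66 for Cdh11. In G1KO 2 of 13 were lower, Lox at -1.58 among them, and 1 was higher, Tnc at 1.08, with a median of -0.22. In G2KO the 9 contractile genes tested had 1 call, and Acta2 stood at 0.09 beside these matrix genes.

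**Figure D4:**
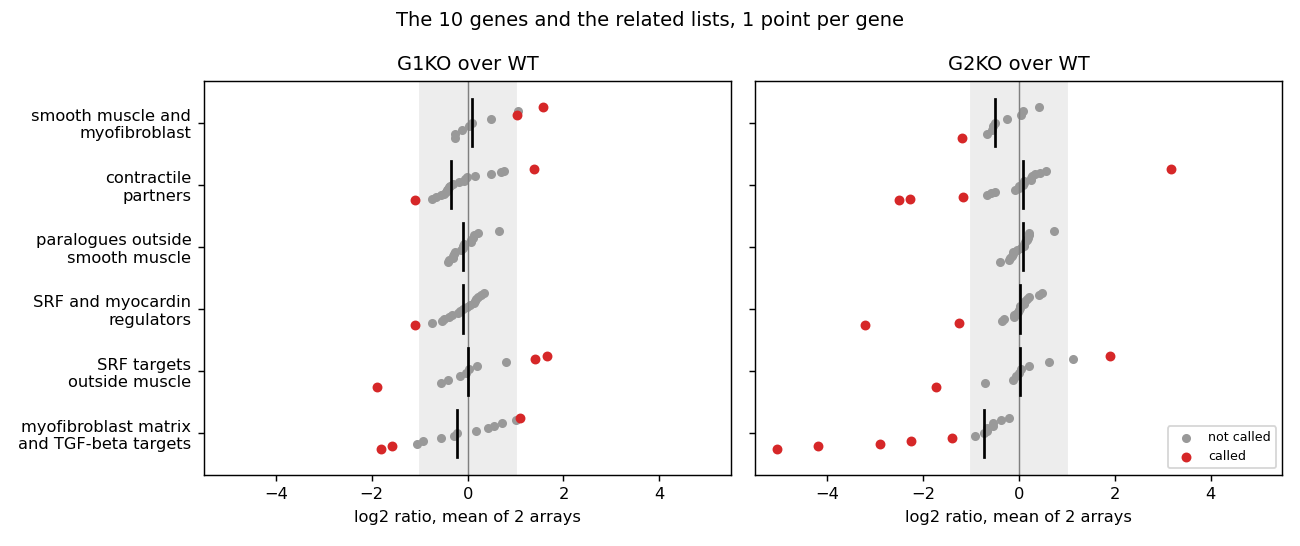
Mean log2 ratio of 2 arrays (horizontal axis) for each tested gene of the smooth muscle and myofibroblast list and of 5 related lists, for G1KO on the left and G2KO on the right. Red points are called, grey points are not, black bars are list medians, and the grey band holds differences under 2-fold. The matrix genes in G2KO reach -5.05, with a median of -0.73, while the contractile genes stay between -1.19 and 0.42.

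Markers of other cell types moved with both comparisons, and their part in the values of the contractile genes was not tested. In such bulk RNA, fewer cells of a type and less RNA per cell cannot be told apart. All 8 mesothelial markers were above background in the WT of the G1KO pair and in G1KO, with a summed level of 205800 and 259807 on the arrays of that WT and 24536 and 31858 in G1KO. Of these 7 were lower in G1KO, led by Gpm6a at -6.19 and Lrrn4 at -5.92, and 1, Krt19, was higher. In the G2KO pair the sum was 1810 to 4256 and 2 of the 8 were above background in each culture. Fibroblast markers were above background in all 4 cultures, 9 of 9. Their summed level was 735115 and 734355 in the WT of the G2KO pair and 227461 and 351500 in G2KO. In G2KO 6 of 9 were lower, led at the brightest probes by Col6a3 at -4.99 and Pdgfra at -4.63. The other tested probe of Pdgfra gave -0.59. The other tested probes of Col6a3 had ratios smaller in size than its brightest, the smallest being -0.85. In G1KO 3 of the 9 were higher and 1, Dcn, was lower at -4.05, with -0.89 at its other probe. The summed fibroblast level was 504314 and 518847 in the WT of the G1KO pair and 285230 and 406786 in G1KO. The neural and glial markers had a summed level of 3593 and 3986 in the WT of the G2KO pair and 34277 and 34960 in G2KO. That sum was 3026 to 5532 in the G1KO pair. In G2KO Gpm6b stood at 5.90 at its brightest probe and 0.66 at another, and Sox2 at 5.59.

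Cells closer to smooth muscle were checked the same way. Pericyte markers had a summed level of 5846 and 5997 in the WT of the G1KO pair and 9376 and 9928 in G1KO, with Pdgfrb at 1.09 and Cspg4 at -1.03. In the WT of the G2KO pair that sum was 32968 and 33344, and in G2KO it was 14889 and 16519, with Cspg4 at -2.20 and Notch3 at 1.21. Skeletal muscle markers gave no call, with 5 of 11 tested in G1KO and 3 of 11 in G2KO. Their sum was 846 to 973 in all 4 cultures, where only 1 to 4 of the 11 were above background on both arrays. Des, which skeletal and cardiac muscle also use, was not above background in any culture. Of the cardiac markers, Tnnt2 was higher in both comparisons at 1.55 and 1.69, and Myl7 was lower in G1KO at -3.71. That sum was 8904 and 9184 in the WT of the G1KO pair, 5545 and 6099 in G1KO, and 682 to 1173 in the G2KO pair. Endothelial, epithelial and haematopoietic markers gave 1, 1 and 0 calls in G1KO, with Emcn at -2.65 and Krt14 at -2.09, and 0 in G2KO. Over the cultures the endothelial sum was 383 to 1154 and the haematopoietic sum 395 to 893. The epithelial sum was 44430 and 47629 in the WT of the G1KO pair, 32629 and 35030 in G1KO, and 444 to 479 in the G2KO pair.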

How the data were processed

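Cy3- and Cy5-labelled cRNA, primed with oligo-dT from total RNA of MEFs, was hybridised to 2-colour Agilent arrays. The authors quantified spots with Agilent Feature Extraction (10.5.1.1 per the file headers, 9.1 in the submitters' processing notes). The deposited values are intensity on a linear scale, neither background-subtracted nor normalised, and the scanner's log10 ratio of Cy5 over Cy3. The authors' deposited series table holds that log10 ratio turned to knockout over WT. Background correction by normexp (offset 50) and loess normalisation of each array were done in limma 3.58.1 (R 4.3.3). Control and outlier spots were left out, spots of a probe averaged, and both arrays of a dye-swap pair averaged as 1 replicate. Levels per channel were aligned with Aquantile. Signals well above background were taken from the scanner's flag. The brightest probe is the one with the highest mean brightness over the 4 arrays. A bound for a dim gene sets the bright mean against the dim signal itself or the detection limit (the lowest signal with the flag), whichever is higher, and is open to dye bias. The number of arrays limits the precision. Paired arrays differed with a root mean square SD of 0.131 (G1KO) and 0.129 (G2KO) on the log2 scale. All arrays lay on 1 slide and in 1 scan.

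Groups came from the sample labels. The code was tested on simulated data. The genes, lists and tests were chosen with earlier results of these data known. All 10 genes and every probe of them were named, with Ccng1, Ccng2, Xist and Y-linked genes, up to 4 called genes per related or marker list and comparison by size, and the 5 genes nearest to Acta2. The value of 1 gene called in a related list is not reported here. Summed marker levels add the linear levels of the brightest probes. Promoters came from RefSeq and were matched by symbol for 7 of the 10 genes. Probe positions come from the scanner files (mm8). Exons, untranslated regions and protein sequences were not analysed here. Alternatives changed the background correction, normalisation, filters, threshold, probe rule and arrays used. The CArG search with 1 substitution was chosen after seeing the data.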

Additional observations from a re-analysis of the deposited data

Results flagged for a closer look

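Of the 17 member probes tested in both comparisons, 7 had ratios of one sign on both G1KO arrays and of the other sign on both G2KO arrays, beside 35.8% of all 24150 probes tested in both. The difference between the comparisons was not tested, since each genotype had 1 culture. As the G1KO log2 ratio minus the G2KO log2 ratio, it was 2.23 for Myl9, 2.07 for Cnn1 and 0.66 for the second Tpm2 probe. For Myh11 the measured value was 1.59, which is a bound with no place in this order, since Myh11 was not well above background in G2KO. For Acta2 it was -0.20 at the brightest probe, -0.13 at the probe spanning 34314502 to 34317756 and -0.87 at the probe from 34307204 to 34307263. The WT of the 2 pairs lay apart by 1.20 for Myl9, -0.96 for Cnn1 and 0.03 for Myh11, and the part of the WT cultures in these differences was not tested.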

How the results depend on the processing

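The number of contractile genes called in G1KO was 0 with median centring in place of loess and 0 at a 4-fold threshold, although under median centring the mean ratios were 1.60 for Cnn1 and 1.102 for Myh11, and it was 2 to 3 on a single array. In G2KO it was 2 with normexp offset 0 and with the scanner log ratio, where Myh11 joined Myl9, and 0 with median centring (Myl9 at a mean of -1.01) and at 4-fold. The series table called 1 gene in G2KO, Myh11 in place of Myl9. The G2KO median was -0.51 with offset 0, -0.50 without background correction, -0.36 with median centring, -0.49 with the scanner log ratio and with the series table, -0.38 with no filter and with both genotypes above background, -0.47 with the mean of all probes of a gene and -0.47 on either array alone. The G1KO median on a single array was 0.00 to 0.24. Of the 9 genes, 0 differed 2-fold between the WT cultures with quantile normalisation of all channels, and 1 to 2 did on a single array, Cnn1 being added without the first. The promoters with a CArG box were 2 with 1 substitution allowed. No called gene changed direction under these alternatives, and the causes of these shifts were not tested. Slide as a block was not run, with 1 slide and 1 scan. No paired analysis was possible because the replicate numbers mark the dye orientation within each pair and no test was made. With 1 culture per genotype in each comparison, the spread between cultures was not measured within a comparison. Dim genes, Myh11 and Des here, are limited by signal over background.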
